A study of Homo sapiens with 4 samples.

Results

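Genes that repair DNA damage and halt the cell cycle in response to it were followed in U937 cells, a human myelomonocytic line from a histiocytic lymphoma, after knock-down of PIR. The product of PIR, pirin, is a nuclear protein that binds iron. A list of 52 genes covering 7 repair and checkpoint pathways was matched to the probe sets of Affymetrix HG-U133 Plus 2.0 arrays through the gene symbols of the platform annotation. Of these, 47 had a probe set annotated to that symbol alone, among 19775 such genes in all, and each was read from its brightest probe set, by mean log2 value. FANCA, FANCD2, BRCA2 and RBBP8 had no probe set named for them in the annotation used, and the probe sets of PMS2 were also annotated to PMS2CL, so these 5 genes were not analysed here.

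The study compared U937 cells carrying the pSICO-R lentiviral vector with a hairpin against PIR, called shPIR#7, with U937 cells carrying the same vector without a hairpin. Both lines were kept in RPMI-1640 with 10% FCS and 2 mM glutamine. Each line was represented by 1 pool of RNA from 3 extractions, hybridised to 2 arrays, so the comparison is between 2 pools, and the spread given by the pair of array values is that of repeat hybridisations. Over the measured members the median SD between the arrays of a pool was 0.075 for the knock-down and 0.063 for the empty vector on the log2 scale (n = 2 arrays). No p-value for the knock-down can be had from this design, a single hairpin was used, and in bulk RNA fewer cells in a given phase and less RNA per cell cannot be told apart.

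DNA is damaged in different ways, and separate pathways deal with each kind. The Fanconi anaemia proteins unhook crosslinks between the strands, homologous recombination copies the sister chromatid across a break, and non-homologous end joining ligates broken ends directly. Base excision repair and nucleotide excision repair replace damaged bases and bulky adducts, mismatch repair corrects replication errors, and the ATM and ATR kinases with their targets CHEK1 and CHEK2 hold the cell cycle while repair proceeds. Many recombination and Fanconi genes are transcribed mainly in S phase under E2F factors, whereas most excision repair genes are expressed throughout the cycle.

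E2F binding words were therefore looked for in the promoters of the members, and the 4 promoters shown here were chosen because they put the words beside members that differed between the pools and members that did not. The sequences are RefSeq's on build GRCh38.p14, 250 bases before to 50 bases after the annotated start of the gene, written 5′ to 3′ on the gene's own strand. Capitals mark the E2F words TTTCCCGC, TTTCGCGC, TTTGCCGC and TTTGGCGC, searched on both strands. FANCC and EXO1 had lower signals in the knock-down pool, XPC a higher signal, and MSH6 nearly the same signal in both pools.
FANCC (chr9:95317660-95317959, minus strand): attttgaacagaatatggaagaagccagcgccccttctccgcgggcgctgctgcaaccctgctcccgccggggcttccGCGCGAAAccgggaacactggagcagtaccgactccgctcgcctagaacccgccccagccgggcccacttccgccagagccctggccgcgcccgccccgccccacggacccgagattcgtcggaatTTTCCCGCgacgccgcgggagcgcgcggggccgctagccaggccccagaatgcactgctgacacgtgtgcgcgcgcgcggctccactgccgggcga
EXO1 (chr1:241847954-241848253, plus strand): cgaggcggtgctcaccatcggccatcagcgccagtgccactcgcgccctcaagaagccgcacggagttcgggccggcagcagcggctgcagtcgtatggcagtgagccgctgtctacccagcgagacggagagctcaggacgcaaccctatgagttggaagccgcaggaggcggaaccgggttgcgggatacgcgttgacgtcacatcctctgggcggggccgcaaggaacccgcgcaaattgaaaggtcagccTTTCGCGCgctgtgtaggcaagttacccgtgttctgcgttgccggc
MSH6 (chr2:47782895-47783194, plus strand): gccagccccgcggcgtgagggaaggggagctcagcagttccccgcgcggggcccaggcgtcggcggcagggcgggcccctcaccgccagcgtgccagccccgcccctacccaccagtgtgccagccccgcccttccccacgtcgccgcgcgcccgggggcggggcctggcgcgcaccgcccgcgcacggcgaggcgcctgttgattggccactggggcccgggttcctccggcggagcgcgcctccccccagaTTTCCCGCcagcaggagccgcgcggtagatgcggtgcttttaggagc
XPC (chr3:14178552-14178851, minus strand): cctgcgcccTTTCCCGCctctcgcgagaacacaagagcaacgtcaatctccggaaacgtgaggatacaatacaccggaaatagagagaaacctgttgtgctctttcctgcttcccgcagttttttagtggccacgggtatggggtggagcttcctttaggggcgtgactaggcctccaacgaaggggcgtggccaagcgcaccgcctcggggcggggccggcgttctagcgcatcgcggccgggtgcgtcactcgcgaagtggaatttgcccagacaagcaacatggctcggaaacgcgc
FANCC held the words at -172, on the opposite strand, and at -46 from its start. In EXO1 and MSH6 the word lay just past the start, at +5 and +4, and in XPC it lay at -241. Of the 42 members with a promoter in the table, 6 held an E2F word, the others being XRCC2 and XRCC6, against 5.69% of the promoters of 8513 measured genes and 3.32% of all 35097. Both directions of difference occurred among these 6 genes, and BRCA1, BARD1 and RAD54L, which were lower, held none of these letters in this window. Each gene was searched at a single annotated start, for BRCA1 at chr17:43170278-43170577. Words at any other start of a gene would be missed, so their absence here does not describe all its promoters. The CHR words TTTGAA and TTCGAA of late cell cycle genes were in 4 of the 42, against 11.6% of measured genes, and a CCAAT box was in 21, against 36.9%. Of the 7 E2F matches in members, 0 shared bases with a CHR or CCAAT match. A match describes the sequence, not a bound site.

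The arrays had been scaled by the submitters to a common mean. PIR itself had signals of 83.4 and 91.5 after knock-down and of 1812.9 and 1881.7 with the empty vector. Of the myeloid markers, SPI1, CSF1R, CSF3R, LYZ and CEBPA were measured in both pools, while MPO, a granule peroxidase of myeloid precursors, and FCGR1A were not. CSF1R (0.69, 1.61-fold) and CSF3R (0.54, 1.45-fold), receptors for colony-stimulating factors, were higher in the knock-down pool by the 1.3-fold rule given below, and CEBPA was higher without overlap at 0.26. SPI1 and LYZ overlapped at -0.13 and 0.01. The part of these markers in the differences of the members was not tested. No T cell, epithelial or erythroid marker was measured in either pool, and of the B cell markers only CD79A was, at 300.4 after knock-down and 329.1 with the empty vector. The ratio of 3′ to 5′ signal, a sign of RNA integrity, ran from 0.959 to 1.02 for GAPDH and from 1.17 to 1.18 for ACTB over the 4 arrays.

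All 47 members were measured, that is, both arrays of at least 1 pool reached the 60th percentile of signal on that array, as did 10288 genes in all. Differences are knock-down minus empty vector on the scale of log2(signal + 18), and a fold on that scale understates the change of dim genes. A member was counted as lower or higher without overlap when both knock-down arrays lay on the same side of both empty-vector arrays. A negative difference was found for 28 of the 47 members (background 44.8%) and a positive one for 19 (background 55.2%). The signals were lower without overlap for 23 members (48.9%), where the background was 31.2% of measured genes, and higher without overlap for 9 members (19.1%), where the background was 40.9%. The arrays of the other 15 overlapped. With single arrays left out, the count of 9 was 12 without knock-down replica 1 and 14 without knock-down replica 2. It was 18 without empty-vector replica 1 and 9 without empty-vector replica 2. The backgrounds in that order were 49.5%, 48.5%, 46.7% and 46.9%. Fewer arrays leave less room for overlap, but the count also differed with the array left out, and the cause was not tested.

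A stricter count also asked for a difference of at least 1.3-fold (0.38 on the log2 scale) and for both arrays of the higher pool to reach the 60th percentile. It found 9 members lower (19.1%, background 11.6%) and 4 higher (8.51%, background 18.1%). No member differed by 2-fold with every array-by-array difference at 0.5 or more, a rule met by 1.1% of measured genes as lower and by 2.44% as higher. The median difference of the members was -0.07, beside 0.05 for all measured genes. Scaling the arrays to a common median instead of a common mean raised the median of all genes to 0.17 and that of the members to 0.06, and turned the split of 9 lower and 4 higher into 4 lower and 8 higher, against backgrounds of 7.35% and 27.5%. The direction of the whole list therefore rests on the scaling, while its place below the median of all genes was found under both.

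**Figure D1:**
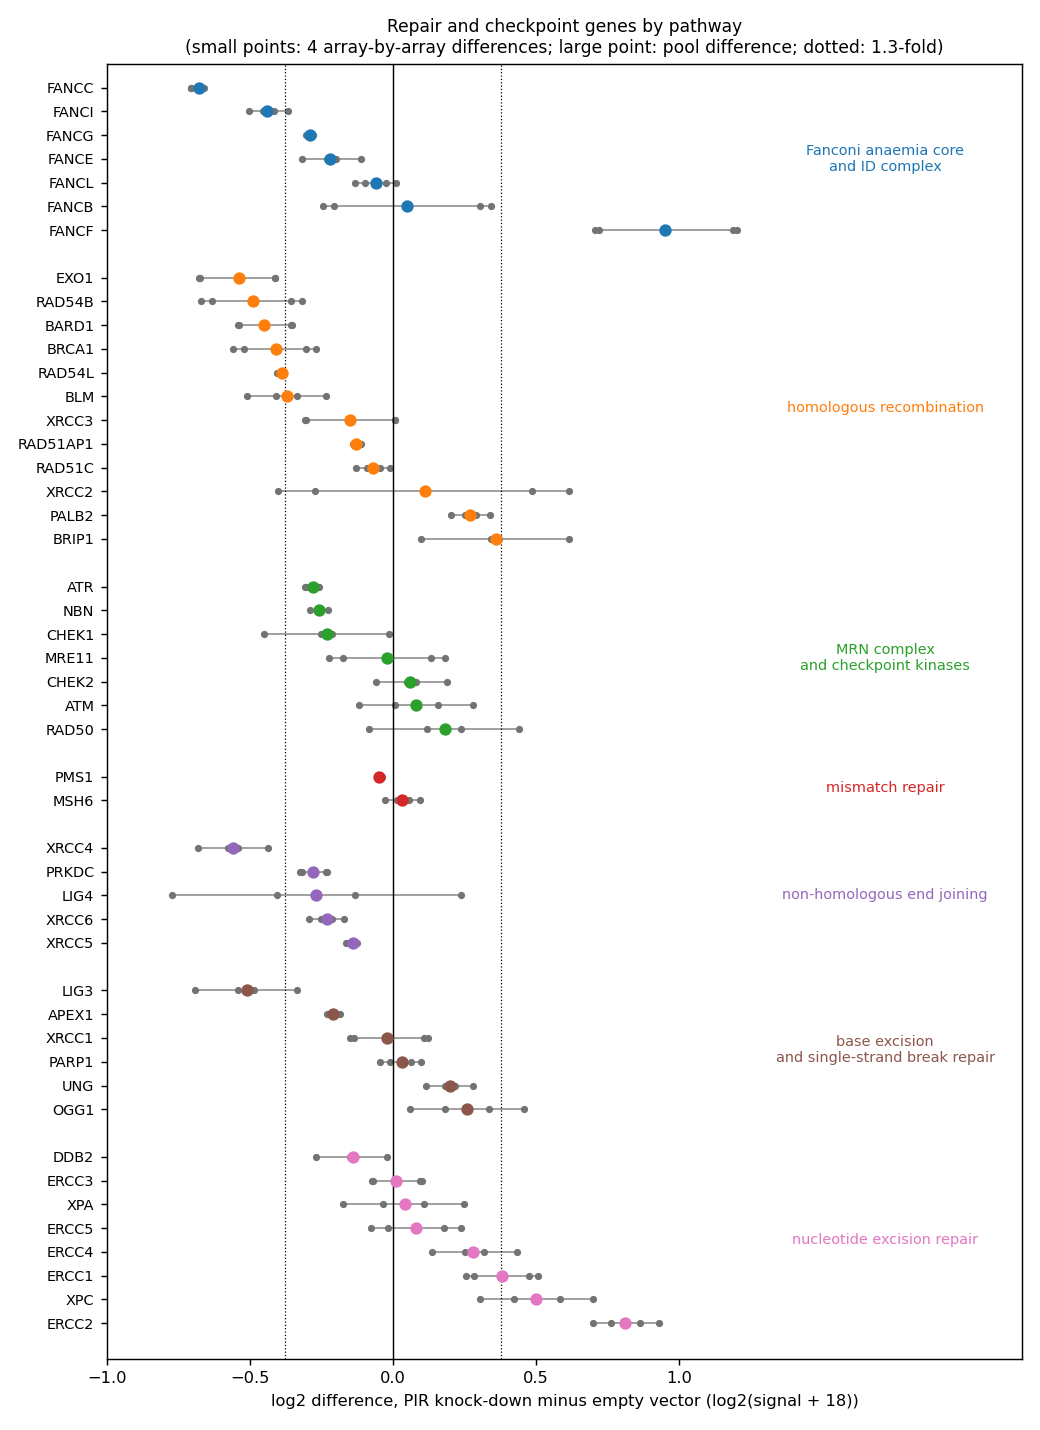
Log2 difference of each of the 47 members (PIR knock-down minus empty vector, horizontal axis), grouped by pathway. Small points are the 4 array-by-array differences, the large point is the difference of the pools, and dotted lines mark 1.3-fold; recombination and end joining genes lie mostly left of 0 and nucleotide excision genes mostly right of it.

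In the Fanconi pathway the core complex genes went both ways. Of 7 measured genes, 5 had a negative difference (background 44.8%), and the median was -0.22 (-0.24 after quantile normalization and -0.09 after median scaling). FANCC, a subunit of the core complex, had signals of 207.6 and 208.0 after knock-down and 350.5 and 339.4 with the empty vector. Both knock-down arrays were low, and the difference of -0.68 (1.61-fold lower) was the most negative of all members. The signals were dim, and the other FANCC probe sets were not measured. A limit at the 75th percentile left out both FANCC and FANCF, and the 4 Fanconi genes measured under it were all negative. FANCF, the adaptor that holds the core complex together, stood at the other end, with 400.4 and 567.1 after knock-down and 236.2 and 238.8 with the empty vector. Both knock-down arrays lay above both empty-vector arrays, but they differed from each other, and the difference was 0.95 (1.94-fold higher), the largest of any member. The second FANCF probe set gave 1.42 (2.67-fold higher), with mean signals of 464.1 and 162.8, and met the 2-fold rule.

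FANCI, which is ubiquitinated when the pathway is switched on, had 2932.0 and 2759.1 after knock-down and 3919.3 and 3789.9 with the empty vector. All arrays were well separated, at -0.44 (1.35-fold lower), and its other measured probe sets gave -0.21 and -0.24. FANCI missed the 1.3-fold limit with its probe sets averaged (-0.29) and after median scaling (-0.31). FANCG and FANCE, both core subunits, were lower without overlap by less than the 1.3-fold limit, at -0.29 and -0.22. FANCL, the ubiquitin ligase of the complex, differed by -0.06 and FANCB by 0.05, with overlapping arrays. The ligase subunit thus showed no difference beyond the spread between arrays, and neither did FANCB, whose signals ran from 108.6 to 167.3.

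Recombination held the largest number of lower genes. Of 12 measured genes, 9 had a negative difference, 5 were lower and none higher by the 1.3-fold rule, and the median was -0.26 (-0.29 after quantile normalization and -0.14 after median scaling). The background was 44.8% negative, 11.6% lower and 18.1% higher. After median scaling only EXO1 of the 5 was still lower by the rule, and BRIP1 and PALB2 were higher. That made the count 1 lower and 2 higher, against backgrounds of 7.35% and 27.5% under that scaling. EXO1, the exonuclease that resects broken ends over long distances, had 1130.1 and 1361.6 after knock-down and 1817.6 and 1816.9 with the empty vector. The empty-vector arrays were nearly equal and both above the knock-down arrays, at -0.54 (1.46-fold lower). RAD54B, a DNA translocase of the SWI/SNF family, had 809.2 and 787.9 against 1013.6 and 1264.6 with the empty vector. Here the empty-vector arrays were the ones that differed, and the difference was -0.49 (1.41-fold lower), or -0.34 without empty-vector replica 2, which is inside the limit. Its relative RAD54L had 861.6 and 852.1 against 1134.6 and 1126.5. That separation was the tightest among the recombination genes past the limit, at -0.39 (1.31-fold lower), with array-by-array differences from -0.41 to -0.38.

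BRCA1 and BARD1 form a ubiquitin ligase that directs breaks into recombination, and both partners were lower in the submitters' scaling, though not by 1.3-fold after median scaling (-0.29 and -0.32). BRCA1 had 1405.6 and 1679.7 after knock-down and 2080.9 and 2026.8 with the empty vector. The knock-down arrays were both below, by -0.41 (1.33-fold), and the second BRCA1 probe set gave -0.33. BRCA1 missed the limit without knock-down replica 1 (-0.29) and with its probe sets averaged (-0.37). BARD1 had 1219.5 and 1071.9 against 1567.8 and 1564.9, again without overlap, at -0.45 (1.36-fold lower), and it missed the limit without knock-down replica 2 (-0.36). Its further measured probe sets gave -0.27 and, from dimmer mean signals of 216 and 456.4, -1.02 (2.03-fold lower). BLM, the helicase mutated in Bloom syndrome, lay just outside the limit at -0.37, with 1504.4 and 1701.8 against 2153.3 and 2004.5.

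Not all recombination genes were lower. BRIP1, the helicase that binds BRCA1, had 980.5 and 1188.5 after knock-down and 916.2 and 770.2 with the empty vector. It was higher without overlap, at 0.36, just inside the 1.3-fold lines, and its second probe set gave 0.32. PALB2, which links BRCA1 to BRCA2, had 1757.5 and 1698.6 against 1385.4 and 1474.7 and was higher by 0.27. So BRCA1 and BARD1 differed in one direction and their partners BRIP1 and PALB2 in the other. RAD51AP1, a stimulator of strand pairing, was lower without overlap by only -0.13, and RAD51C, a subunit of the paralogue complexes, by -0.07, although its second probe set gave -0.45. XRCC3 and XRCC2, further subunits of those complexes, had overlapping arrays at -0.15 and 0.11. The XRCC2 value is little bound, since its empty-vector arrays gave 445.9 and 232.9.

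**Figure D2:**
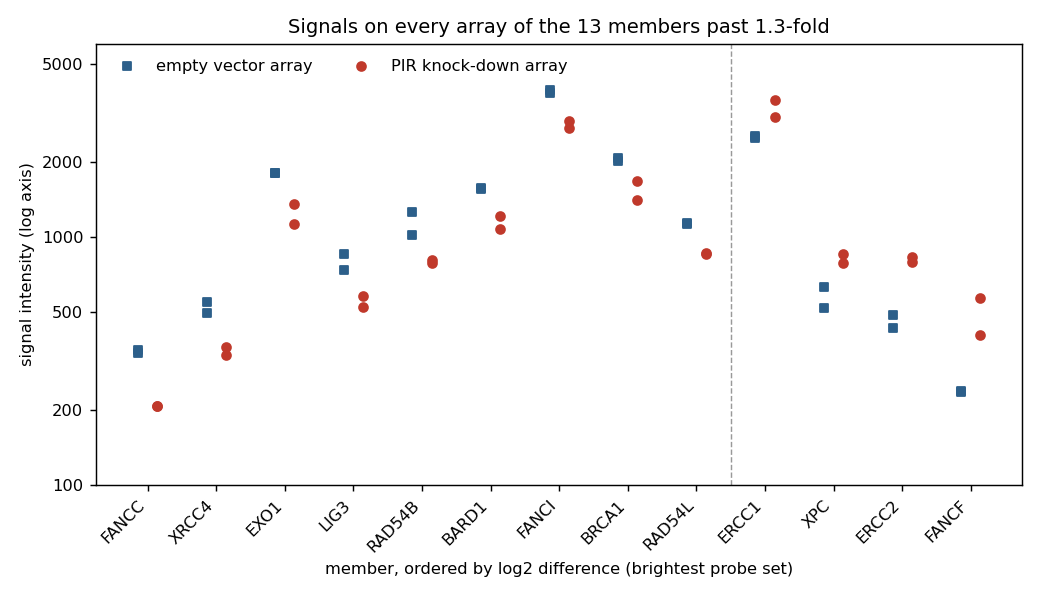
Signal intensity (vertical log axis) on each of the 4 arrays for the 13 members past 1.3-fold, ordered by log2 difference, with empty-vector arrays as squares and knock-down arrays as circles. The 9 genes left of the dashed line were lower and the 4 right of it higher in the knock-down pool, and in each the 2 kinds of symbol do not overlap.

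The break sensors and checkpoint kinases showed small differences. None of the 7 genes reached 1.3-fold in either direction, against backgrounds of 11.6% lower and 18.1% higher. The median was -0.02 (0.10 after median scaling, which turned its sign). When the brightest specific probe set was read, MRE11 was lower by the rule, at -0.67. ATR, the kinase that responds to stalled forks, had 1125.8 and 1089.2 after knock-down and 1349.5 and 1353.1 with the empty vector. It was lower without overlap at -0.28 on both of its measured probe sets. ATM, the kinase that responds to breaks, had 835.6 and 687.3 against 747.2 and 684.8 and overlapped, at 0.08, and its other measured probe sets gave 0.35 and 0.22. CHEK1, the main target of ATR, was lower by -0.23, with array-by-array differences from -0.45 to -0.01. Its other measured probe sets gave -0.13 and 0.01, and CHEK1 stood at -0.11 without knock-down replica 1 and -0.06 without replica 2. CHEK2, the main target of ATM, overlapped at 0.06.

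MRE11, RAD50 and NBN form the complex that first binds a broken end. NBN was lower without overlap at -0.26 on its brightest probe set, with signals of 3171.0 and 3246.3 against 3886.6 and 3806.6. Its further probe sets gave 0.06, -0.02 and -0.12, so the 4 NBN probe sets did not show 1 direction. RAD50 overlapped at 0.18, and its other measured probe sets gave -0.09 and -0.38. MRE11 overlapped at -0.02, but its second, dimmer probe set gave -0.67 without overlap (mean signals of 200.8 and 320.8).

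All 5 end joining genes had a negative difference under the submitters' scaling, quantile normalization and median scaling, with medians of -0.27, -0.26 and -0.15. In the submitters' scaling the background was 44.8% negative and 11.6% lower by the 1.3-fold rule. Without knock-down replica 1 the count was 4 of 5, with LIG4 at 0.05. On the brightest specific probe set of each gene, 3 of the 5 were measured. XRCC4, the scaffold of the ligation complex, had 333.2 and 359.9 after knock-down and 493.4 and 545.6 with the empty vector. Both knock-down arrays were low, at -0.56 (1.47-fold lower), and its other measured probe sets gave -0.40 and -0.96. LIG4, the ligase that XRCC4 holds, had arrays of 443.1 and 700.7 against 769.5 and 592.2, which overlapped at -0.27. Its second probe set was lower without overlap at -0.36.

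The Ku subunits and their kinase were lower by small amounts. XRCC6, which encodes Ku70, had 10978 and 10376 against 12725 and 12359, a difference of -0.23 without overlap. XRCC5, which encodes Ku80, was lower without overlap at -0.14, and at -0.37 on its second probe set. PRKDC, the catalytic subunit of the kinase that Ku recruits, had 5851.7 and 5878.8 against 6895.1 and 7332.1 and a difference of -0.28, but its second measured probe set overlapped at -0.06. In the submitters' scaling these 3 genes therefore differed by more than the spread between arrays on their brightest probe set and by less than 1.3-fold. After median scaling XRCC6 stood at -0.11, XRCC5 at -0.02 and PRKDC at -0.15. PRKDC stood at -0.01 with all its probe sets averaged.

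Nucleotide excision repair was the pathway with most genes higher. Of 8 measured genes, 7 had a positive difference and 3 were higher by the 1.3-fold rule, and the median was 0.18 (0.15 after quantile normalization, where 5 of 8 were positive, and 0.31 after median scaling). The backgrounds were 55.2% positive and 18.1% higher. With all probe sets averaged the median was 0.06, beside 0.007 for all genes. Over the 7 genes measured under the 75th percentile limit it was 0.08, beside 0.04 for all genes. The 12 other measured nucleotide excision genes had a median of 0.04, with 1 higher by the rule. ERCC2, the XPD helicase of the TFIIH complex that opens DNA around a lesion, had 831.4 and 795.1 after knock-down and 483.2 and 428.5 with the empty vector. The arrays were far apart, at 0.81 (1.76-fold higher), although the second ERCC2 probe set gave only 0.24. XPC, the sensor that first finds a bulky lesion, had 783.1 and 850.9 against 517.2 and 630.4. It was higher at 0.50 (1.42-fold), and it no longer met the rule without empty-vector replica 1.

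ERCC1, a subunit of the nuclease that cuts on the 5′ side of a lesion, had 3568.6 and 3056.7 after knock-down and 2559.5 and 2506.7 with the empty vector. It sat on the 1.3-fold limit at 0.38, and its other probe sets gave 0.33 and 0.19, all without overlap. ERCC4, the catalytic partner of ERCC1, was higher without overlap at 0.28, below the limit, but its second probe set, which was too dim to be measured, gave -1.05, and the mean of both was -0.38. ERCC5, the nuclease of the 3′ side, and ERCC3, the second TFIIH helicase, overlapped at 0.08 and 0.01, as did XPA, the scaffold of the incision complex, at 0.04. DDB2, a p53-inducible sensor of ultraviolet lesions, was the negative gene, at -0.14 without overlap. ERCC2 and ERCC1 lie near each other on chromosome 19 with 2 genes between them in RefSeq, PPP1R13L and POLR1G, whose differences were 0.35 and -0.21.

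TFIIH also serves transcription. Of its 8 subunits measured, ERCC2 was past 1.3-fold on its brightest probe set, where the background was 18.1% higher. The median was 0.02 (-0.02 after quantile normalization and 0.14 after median scaling). GTF2H1, GTF2H4, CDK7, MNAT1 and CCNH had differences of 0.10, 0.03, -0.02, -0.17 and 0.02, and GTF2H3 had -0.32 with 1305.3 and 1885.1 in the knock-down pool against 1912.9 and 2008.1. The second GTF2H3 probe set was lower without overlap at -0.48 (1.40-fold), and the further GTF2H1 probe sets gave 0.33 and -0.31.

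Base excision genes were split, with 3 of 6 positive (background 55.2%) and a median of 0.01 (-0.02 after quantile normalization and 0.13 after median scaling). LIG3, the ligase that seals single-strand breaks, had 577.7 and 519.2 after knock-down and 849.6 and 733.8 with the empty vector. It was lower at -0.51 (1.43-fold), and all 4 of its further measured probe sets were lower without overlap, from -0.63 to -0.26. LIG3 no longer met the rule with all its probe sets averaged (-0.26) or on its brightest specific probe set (-0.30). The suffix of the brightest LIG3 probe set, _x_at, marks probes that may also bind other sequences, and the only XRCC2 probe set carries it too. XRCC1, the partner of LIG3, overlapped at -0.02, as did PARP1, the sensor of single-strand breaks, at 0.03. APEX1, the endonuclease that cuts abasic sites, was lower without overlap at -0.21 (10102 and 9887.9 against 11606 and 11495). The glycosylases UNG and OGG1, which remove uracil and oxidised guanine, were higher without overlap at 0.20 and 0.26, and the second OGG1 probe set gave -0.08. In mismatch repair MSH6, the lesion-binding subunit, had 6670.7 and 6300.1 against 6420.4 and 6242.7 and overlapped at 0.03. PMS1 was lower without overlap by only -0.05 on its brightest probe set and by -0.48 on a dim one.

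**Figure D3:**
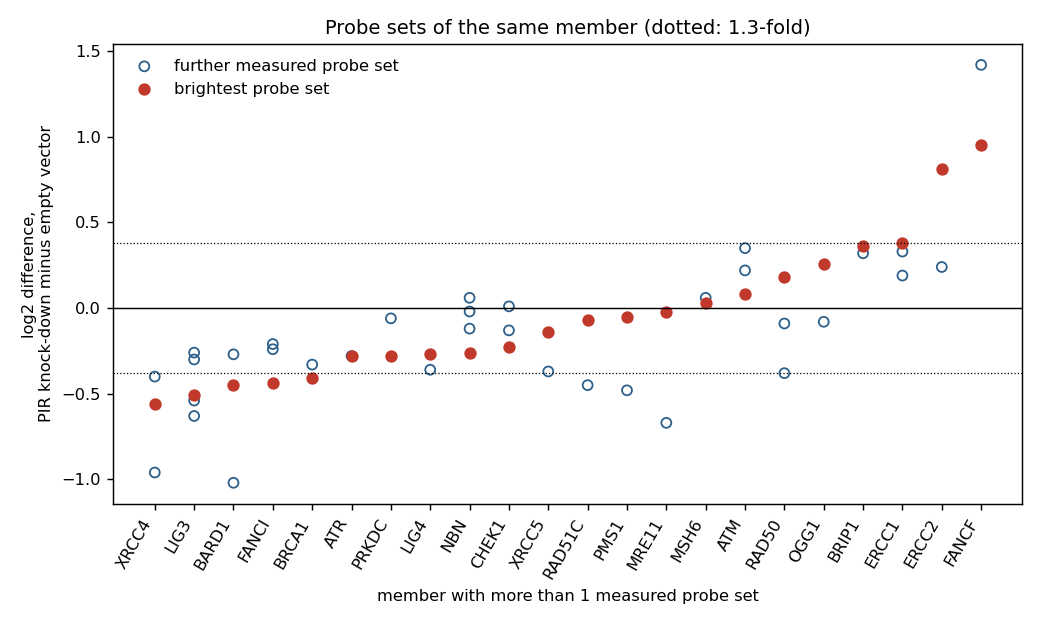
Log2 difference (vertical axis) of every measured probe set for the 22 members with more than 1, ordered by the brightest probe set (filled); open circles are the further measured probe sets and dotted lines mark 1.3-fold. In 18 of the 22 all further probe sets had the sign of the brightest, and the exceptions are NBN, CHEK1, RAD50 and OGG1.

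Probe sets of the same member mostly shared a direction. Of 34 further measured probe sets, 29 had the sign of the brightest one, and for the 8 members past 1.3-fold that had any, all 15 did. No member had measured probe sets past 1.3-fold in opposite directions. FANCC, RAD54L, RAD54B, EXO1 and XPC rest on 1 measured probe set each.

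The members known for S-phase expression were set beside the others, because the knock-down pool also had lower signals for genes of cell division. Of 18 such members measured, 12 had a negative difference, 6 were lower and none higher by the 1.3-fold rule, and the median was -0.18 (-0.05 after median scaling). The backgrounds were 44.8% negative, 11.6% lower and 18.1% higher, against 33.3% lower here. The 6 were FANCI, BRCA1, BARD1, RAD54L, RAD54B and EXO1. After median scaling the count was 1 lower, EXO1, and 2 higher, BRIP1 and PALB2, against backgrounds of 7.35% and 27.5%. Of the 29 remaining members, 16 were negative, 3 were lower (FANCC, XRCC4 and LIG3) and 4 higher, with a median of -0.02. For comparison, 26 of 29 replication genes were negative with a median of -0.30, 9 of them lower by the same rule, and all 28 mitotic genes were lower, with a median of -0.62. After median scaling 3 of the replication genes and 20 of the mitotic genes were lower by that rule. Members of the S-phase class that did not follow included BRIP1 and PALB2, which were higher without overlap, UNG at 0.20 and MSH6 at 0.03. The part of cell division in the differences of the members was not tested.

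**Figure D4:**
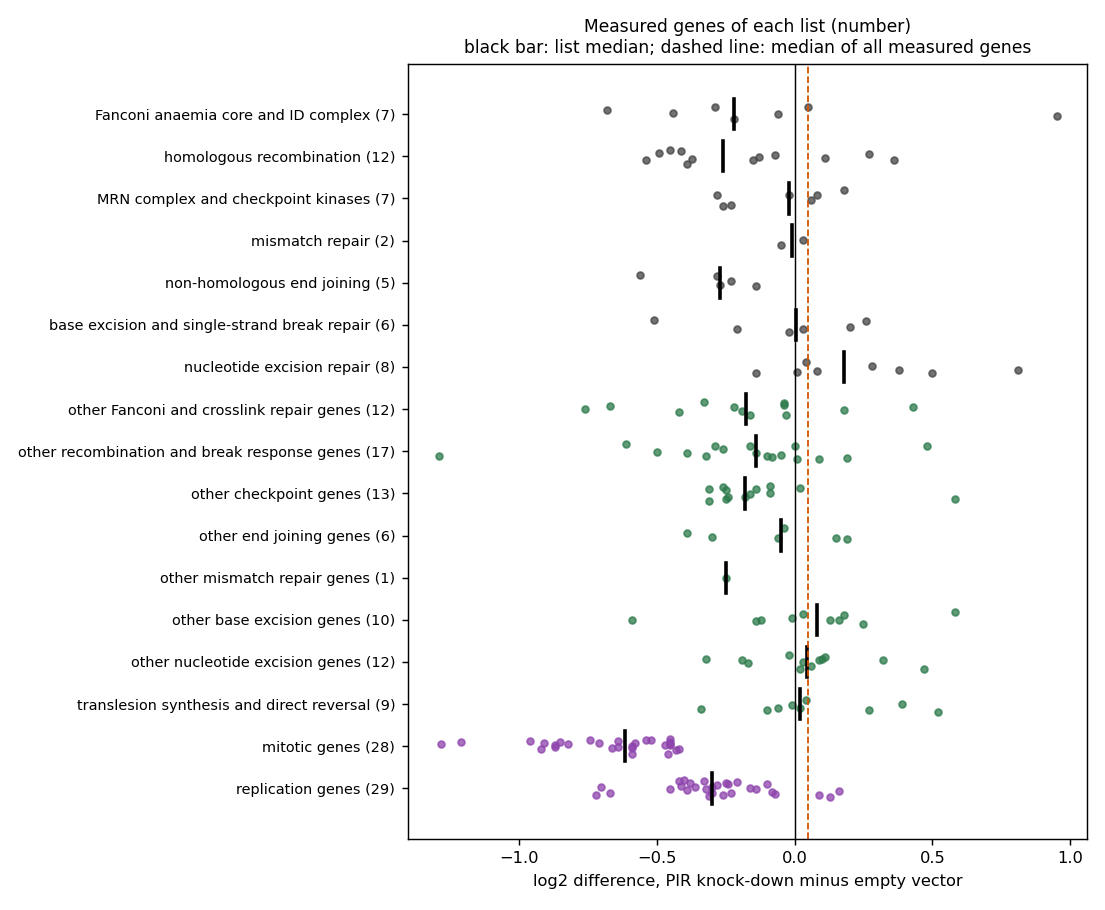
Log2 difference (PIR knock-down minus empty vector, horizontal axis) of each measured gene in the 7 member pathways (grey), 8 lists of other repair genes (green) and the mitotic and replication lists (purple), with the number of genes in brackets. Black bars are list medians and the dashed line is the median of all measured genes, 0.05; the mitotic genes lie furthest left, with a median of -0.62.

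Other genes of the same pathways, in 8 lists drawn up by pathway, also went both ways. Of 80 measured genes, 51 had a negative difference (background 44.8%), 9 were lower and 7 higher by the 1.3-fold rule, and the median was -0.07. The lower share, 11.2%, was near the background of 11.6%, and the higher share of 8.75% stood beside a background of 18.1%. After median scaling the counts were 6 lower and 10 higher, against backgrounds of 7.35% and 27.5%, and the median was 0.06. RECQL, a helicase of the same family as BLM, had 1124.4 and 1261.9 after knock-down and 3003.4 and 2882.2 with the empty vector. It was the single gene past 2-fold, at -1.29 (2.45-fold lower), and its other measured probe sets gave -1.31, -1.43 and -0.82. RECQL4, of the same family, was lower at -0.50, and the second probe set gave -0.94.

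Among the other Fanconi and crosslink repair genes, 3 of 12 were lower and 1 higher by the rule, against backgrounds of 11.6% and 18.1%. The lower ones were SLX4, a scaffold for nucleases, at -0.76 from dim signals (mean of 131.2 against 232.2), the nuclease GEN1 at -0.67 and EME1 at -0.42. MUS81, the nuclease partner of EME1, overlapped at -0.04. The second probe sets of GEN1 and EME1 gave 0.03 and 0.22, so these differences belong to 1 probe set each. PARPBP, an inhibitor of recombination, was lower at -0.61 and POLQ, the polymerase of an alternative end joining route, at -0.39. TDG, a thymine glycosylase, was lower at -0.59 with 2456.3 and 2477.9 against 3723.5 and 3729.5, and UIMC1, which brings BRCA1 to ubiquitin at breaks, at -0.39. The arrays of TDG were almost equal within each pool, and its second probe set gave -0.65.

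Of the 7 that were higher, RAD9A, a subunit of the checkpoint clamp, had 1036.4 and 1140.1 after knock-down and 716.7 and 730.4 with the empty vector, a difference of 0.58. PARP3, a relative of PARP1, was also at 0.58 and POLK, a translesion polymerase, at 0.52. TP53BP1, which favours end joining over recombination, was higher at 0.48, with its other measured probe sets at 0.38 and 0.70. ERCC8, of transcription-coupled excision repair, was at 0.47, WDR48, a partner of the deubiquitinase USP1, at 0.43, and ALKBH3, which reverses alkylation, at 0.39. Of the 13 other measured checkpoint genes, 11 were below 0 (background 44.8%), with a median of -0.18 in the submitters' scaling. Only RAD9A among them passed 1.3-fold, against backgrounds of 11.6% lower and 18.1% higher. The median of this list after median scaling is not given here.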

How the data were processed

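Total RNA was extracted with TRIzol and RNeasy columns, pooled from 3 extractions per condition and labelled with biotin, per the labels' protocols. The submitters' processing notes name GCOS; its version was not given in the sources used here. Values in the deposited table are signal intensities on a linear scale, and their mean after trimming 2% at each end was 500.07 on each of the 4 arrays, so the authors' values are scaled but not centred. Detection calls were not used here, and the number of arrays limits the precision.

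Of 54675 probe sets, 62 controls were left out of the gene comparison, 41091 were annotated to 1 gene symbol, 1801 to several and 11721 to none; 41037 matched RefSeq's table by gene identifier. Genes were represented by their brightest probe set. The 2 arrays of a pool share 1 RNA and were averaged as log2(signal + 18), 18 being the mean 25th percentile of signal, rounded. No test was made, since each condition is 1 sample. The rules for measured genes, overlap and folds are given with the results. The fold rules were tried on simulated arrays, with changes of 1.5-fold and larger put into genes bright in both pools. The simulation covered neither changes at the 1.3-fold limit, nor the rule for measured genes, nor the spread between cultures. Signals were also compared after quantile normalization and median scaling, with other pseudocounts (none and 72) and brightness limits (none and the 75th percentile). Further settings averaged all probe sets of a gene, read its brightest specific probe set, or left out each array in turn. A specific probe set was one without an _s_at or _x_at suffix, and genes that had none kept their brightest probe set. Per-array values are given for members past 1.3-fold and for some other genes, but not for every other gene past 1.3-fold. Of the other pathway genes, those past 1.5-fold and up to 3 per list and direction past 1.3-fold were named. The members, lists and rules were chosen with earlier results of these data known. Python 3.11.15, pandas 2.3.3, numpy 2.4.6 and matplotlib 3.10.9 were used.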

Additional observations from a re-analysis of the deposited data

How the results depend on the processing

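The median difference of the members was 0.06 after median scaling, which turned its sign, -0.13 under the 75th percentile limit, -0.13 with the brightest specific probe set and -0.15 with all probe sets averaged, and it ran from -0.14 to -0.04 with single arrays left out. Median scaling also gave 15 members lower without overlap (background 18.3%). By 1.3-fold it gave 4 lower (background 7.35%) and 8 higher (background 27.5%), and by 2-fold 1 higher (background 3.31%). The single member higher by 2-fold, FANCF, also appeared with no pseudocount, with all probe sets averaged and with the brightest specific probe set, and the count ran from 0 to 1 with single arrays left out. Members higher without overlap ran from 9, without empty-vector replica 2 (background 46.9%), to 18, without empty-vector replica 1 (background 46.7%). A single array in a pool leaves less room for overlap by construction, but the reason for the gap between these counts was not tested. XRCC4 gave 0.22 on its brightest specific probe set, which was not measured. No other of the 13 members past 1.3-fold changed sign under any of the 12 alternatives. Without the brightness limit the counts were those reported. The cause of the other shifts was not tested. No paired analysis was possible because the replica numbers mark repeat hybridisations of 1 pool per condition, and the results come from no test. The depth of the design, 1 pool per condition, leaves the spread between cultures unmeasured.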
